A study of Homo sapiens with 10 samples.

Results

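FLT3 and the myeloid growth factor receptors are described here as 9 genes taken by name, FLT3, KIT, CSF1R, CSF2RA, CSF2RB, CSF3R, IL3RA, IL6R and IL10RA, of the 19590 genes in the expression table. All 9 passed the filter (10 or more normalized counts on average over the 8 libraries), as did 13110 genes in all. RNA was sequenced from MV4-11, a line of human acute myeloid leukemia cells with monocytic features that carries an activating internal tandem duplication of FLT3. The control group was infected with the control vector (4 libraries), and the IRF8 KO group came from cells in which IRF8 was cut with the lentiCRISPRv2 vector and a guide RNA, selected with puromycin and cloned by limiting dilution (4 libraries). Both groups carry the FLT3 duplication and were grown in RPMI with fetal calf serum, with no growth factor named. Neither the labels nor the methods say which clone gave which library or what a replicate number marks, so the p-values measure the spread between these libraries, which may be technical, and a property of a clone cannot be told apart from the knockout.

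FLT3, KIT and CSF1R are receptor tyrosine kinases of the same class, which dimerize on binding their ligand and signal through RAS, PI3K and STAT proteins. CSF2RA and IL3RA are the ligand-binding chains for GM-CSF and interleukin 3, and both pair with the common beta chain CSF2RB, which carries JAK2. CSF3R (G-CSF), IL6R (which works with IL6ST) and IL10RA (which works with IL10RB) also signal through JAK kinases and STAT proteins. FLT3 and KIT are known from hematopoietic progenitors, CSF1R from monocytes and macrophages, CSF3R from neutrophils, and IL3RA as a surface antigen of leukemic blasts.

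In the IRF8 KO libraries, both chains of the interleukin 3 receptor were lower. IL3RA was at 25.1% of its control level and CSF2RB fell by 0.80 on the log2 scale, while no member was called higher. FLT3, the receptor activated by its duplication in this line, had a log2 fold change of −0.21 ± 0.18 (SE), which did not pass the test. Values are read counts divided by a size factor per library, given as normalized counts. A gene was called at an adjusted p below 0.05 in limma on log2(normalized count + 1), with Benjamini-Hochberg adjustment over all tested genes. By that rule 2 of the 9 members were called lower and 0 higher, against a background of 9.56% of all tested genes called lower and 8.65% called higher. At an unadjusted limma p below 0.05, 5 members were lower (KIT, CSF2RA and IL10RA besides these) and 0 higher, where 16% of all tested genes were lower and 15.6% higher by that rule. On the recovered reads edgeR called the same number of members as limma, 2, and DESeq2 called 4, all lower, where DESeq2 called 13.2% of the genes it tested lower; neither called a member higher. The log2 fold change was below 0 in 8 of the 9 members, with a median of −0.69, where the median of all tested genes was −0.00. The study used stricter thresholds (a 2-fold change with an unadjusted p below 0.01) on results of DESeq2. With these thresholds applied to limma instead, 1 member was lower and 0 higher, against 6.12% and 4.78% of all tested genes. In 4 members the groups of libraries did not overlap, as in 25.3% of all tested genes.

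IRF8 itself was checked first. It lay at 36891, 15192, 43016 and 22535 normalized counts in control replicates 1 to 4 and at 6377, 2401, 12903 and 7820 in the IRF8 KO replicates, a log2 fold change of −2.11 ± 0.51 (limma, adjusted p = 0.022). The groups did not overlap, and IRF8 mRNA remained present in every IRF8 KO library. For the protein, the study reported its absence from the knockout cells by Western blot. It also reported its loss from target genes by ChIP-qPCR. Control libraries held 48762519 to 65519047 reads on genes and IRF8 KO libraries 39560072 to 54048461. By limma 8.65% of all tested genes were called higher and 9.56% lower. Of 14 myeloid marker genes (CSF1R included), 6 were called higher and 0 lower by limma (10 and 0 at an unadjusted p below 0.05). Those called were led by MPO (log2 fold change 4.08), ELANE (3.64), CTSG (3.30) and ITGAM (3.03). In 2 of the 14, CD33 (−0.34) and CSF1R (−0.27), the log2 fold change was below 0. The summed level of the 14 was 38801 to 44637 normalized counts in control and 114892 to 437202 in IRF8 KO libraries. LYZ alone, which was not called (limma, adjusted p = 0.060), held 248604 in IRF8 KO replicate 1. CD14, a marker of mature monocytes, was low in both groups, at 1.88 to 12.9 and 13.8 to 25.6. The markers CD3D, CD3E, MS4A1, HBB, PF4, EPCAM and CDH1 of other lineages were at or near 0. NCAM1 (log2 fold change −2.24), KRT8 (−3.51) and KRT18 (−6.08) were present in control libraries and called lower. The receptors were measured in bulk RNA, in which fewer cells of a type and less RNA per cell cannot be told apart, and the part of these markers in the receptor results was not tested.

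**Figure D1:**
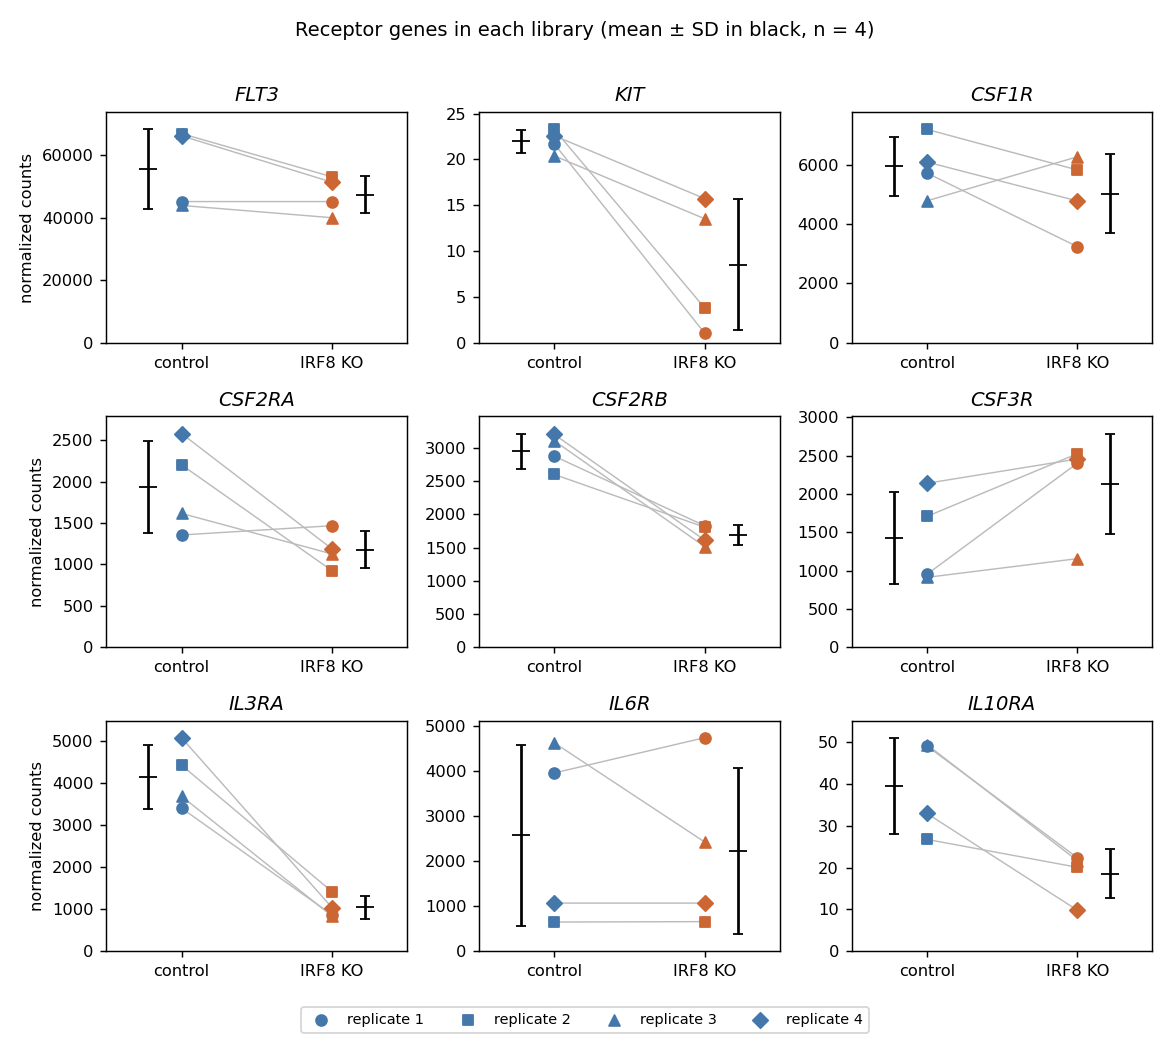
Normalized counts (linear axes from 0) of the 9 receptor genes in the 4 control (blue) and 4 IRF8 KO (orange) libraries. Grey lines join libraries of the same replicate number and black bars give the mean ± SD. IL3RA and CSF2RB separate the groups, FLT3 overlaps, and IL6R differs more between replicate numbers than between groups.

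Among the receptor tyrosine kinases, FLT3 was measured at 45083, 66773, 43847 and 66057 normalized counts in control replicates 1 to 4 and at 45081, 52973, 39931 and 51255 in the IRF8 KO replicates. Replicates 2 and 4 were high and replicates 1 and 3 low in both groups, and the groups overlapped. The means were 55440 ± 12686 (SD, n = 4) and 47310 ± 5974 (SD, n = 4), and the difference did not pass the test (limma, adjusted p = 0.483). Between libraries of the same number FLT3 differed by −0.00, −0.33, −0.13 and −0.37 on the log2 scale. These pairs were formed by number alone, and IRF8 KO replicate 1 (45081) was above control replicate 3 (43847).

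KIT, the receptor for stem cell factor, was near the lower limit of what these libraries count. It lay at 21.7, 23.3, 20.4 and 22.6 normalized counts in control replicates 1 to 4 and at 1.07, 3.82, 13.5 and 15.7 in the IRF8 KO replicates, which rest on 19 to 27 reads in control and 1 to 16 reads in IRF8 KO libraries. All 4 IRF8 KO values were below all 4 control values. IRF8 KO replicates 1 and 2 were lower than replicates 3 and 4. KIT had a log2 fold change of −1.71 ± 0.65, which was not called (limma, adjusted p = 0.107), and the exact permutation test gave 0.0286, the smallest p that 4 against 4 libraries can give. Without IRF8 KO replicate 1 the change was −1.12.

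CSF1R, the M-CSF receptor of monocytes and macrophages, was measured at 5716, 7184, 4778 and 6085 normalized counts in control replicates 1 to 4 and at 3240, 5818, 6259 and 4776 in the IRF8 KO replicates. The groups overlapped, since IRF8 KO replicate 3 was above 3 of the 4 control libraries. Their difference on the log2 scale was −0.27 ± 0.22 (limma, adjusted p = 0.457). Without IRF8 KO replicate 1 it was −0.075, and relative to the median level of the genes of chromosome 5, which shifted by 0.36, it was −0.63. With each of these genes centred on its own mean, their median shifted by 0.22 and CSF1R differed by −0.49. The centred reference was chosen after seeing the data. Of the other kinases of this class, PDGFRB had a log2 fold change of 1.57 ± 0.96 that was not called (limma, adjusted p = 0.305), and PDGFRA was at most 3.22 normalized counts in any library.

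The common beta chain CSF2RB was measured at 2879, 2603, 3112 and 3207 normalized counts in control replicates 1 to 4 and at 1830, 1808, 1515 and 1613 in the IRF8 KO replicates. The groups did not overlap and the values within each lay close together, with means of 2950 ± 269 (SD, n = 4) and 1692 ± 153 (SD, n = 4). The log2 fold change was −0.80 ± 0.12 (limma, adjusted p = 0.00234), with a lower value in the IRF8 KO library of 4 of 4 pairs.

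IL3RA, the alpha chain that binds interleukin 3 and is also known as CD123, was measured at 3398, 4418, 3681 and 5069 normalized counts in control replicates 1 to 4. The IRF8 KO replicates held 867, 1417, 837 and 1039. The highest IRF8 KO library was below the lowest control library, and the means were 4142 ± 753 (SD, n = 4) and 1040 ± 266 (SD, n = 4). The log2 fold change was −2.01 ± 0.20 (limma, adjusted p = 0.000361), and the 4 differences between libraries of the same number ran from −2.29 to −1.64. IL3RA was the member called lower by the thresholds of the study as well.

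CSF2RA, the alpha chain that binds GM-CSF, was measured at 1356, 2205, 1617 and 2584 normalized counts in control replicates 1 to 4 and at 1468, 925, 1127 and 1188 in the IRF8 KO replicates. The groups overlapped, because in replicate 1 the IRF8 KO library was above the control library. CSF2RA had a log2 fold change of −0.69 ± 0.23, which was not called (limma, adjusted p = 0.0669), and the exact permutation test gave p = 0.0571. Without control replicate 1 the log2 fold change was −0.85 and was called (limma, adjusted p = 0.0380), and DESeq2 on the recovered reads also called it (adjusted p = 0.0200).

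**Figure D2:**
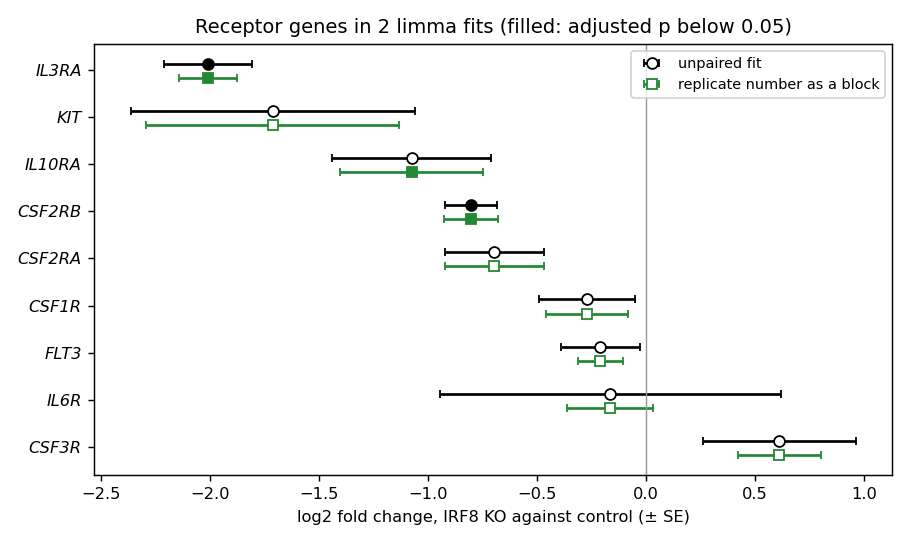
Log2 fold change of IRF8 KO against control (horizontal axis) for the 9 receptor genes, with bars of ± SE, from limma without pairing (black circles) and with the replicate number as a block (green squares). Filled symbols are called at an adjusted p below 0.05. IL3RA and CSF2RB are filled in both fits, and IL10RA in the blocked fit alone.

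IL3RA and CSF2RA both lie in pseudoautosomal region 1, a stretch at the tip of the X chromosome that the Y chromosome also carries. The sequences upstream of their start sites are shown as the assembly gives them for both chromosomes. In the RefSeq promoter windows of assembly GRCh38.p14, 300 of 300 bases were identical between X and Y for each gene. The windows also have the same coordinates on both chromosomes, so the match is a property of the assembly. It does not test the copies that MV4-11 carries. Most of each window lies before the start site, and whether reads of an X copy and a Y copy can be told apart was not tested. The 250 bases before the start site, on the plus strand, lie at chrX:1336535-1336784 for IL3RA and at chrX:1268564-1268813 for CSF2RA. Capitals mark the letters TATAAA in IL3RA and GAGGAA in CSF2RA, on either strand.
IL3RA: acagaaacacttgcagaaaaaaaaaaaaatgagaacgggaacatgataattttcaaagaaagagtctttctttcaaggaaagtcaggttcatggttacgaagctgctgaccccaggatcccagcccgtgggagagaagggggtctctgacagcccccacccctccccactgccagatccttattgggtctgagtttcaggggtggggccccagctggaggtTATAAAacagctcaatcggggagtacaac
CSF2RA: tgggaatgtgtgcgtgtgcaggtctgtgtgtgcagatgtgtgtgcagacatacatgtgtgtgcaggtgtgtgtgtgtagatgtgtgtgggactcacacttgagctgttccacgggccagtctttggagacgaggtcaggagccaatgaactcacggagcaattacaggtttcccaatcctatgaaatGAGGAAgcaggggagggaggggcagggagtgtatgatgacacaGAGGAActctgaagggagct
The letters TATAAA began 29 bases before the IL3RA start site and were in 11.5% of all 35116 promoter windows of the same length. GAGGAA, the core of many ETS factor motifs, occurred at −63 and −20 in CSF2RA and in 27.9% of all windows. These 2 motifs were chosen after the sequences had been seen. The composite ETS and IRF motif GGAANNGAAA (2.82% of all windows), the interferon response core GAAANNGAAA (3.57%) and the PU.1 core GAGGAAGT (2.59%, overlapping GAGGAA), searched on both strands, were in none of the 12 windows of the 8 members that had one. The RUNX motif TGTGGT (13.1% of all windows) was in 1 window each of CSF1R and CSF3R. CSF2RB had no window.

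Other genes of pseudoautosomal region 1 were also called lower, 6 of the 10 tested besides the receptors, against 9.56% of all tested genes. Of 15 listed genes 12 were tested, of which 7 were called lower and 0 higher by limma (8 and 0 at an unadjusted p below 0.05), with all 12 log2 fold changes below 0 and a median of −0.65, with IL3RA among the called and CSF2RA among the others. GTPBP6 (log2 fold change −1.47), AKAP17A, a splicing factor (−1.33), SLC25A6, a mitochondrial ADP/ATP carrier (−1.19), and PPP2R3B, a phosphatase subunit (−0.88), were among those called. The 7 tested Y-specific genes were all called lower, and the list summed to 26735 to 32167 normalized counts in control and 175 to 291 in IRF8 KO libraries. RPS4Y1, a ribosomal protein gene, lay at 12589 to 15484 in control and at 0 to 7.46 in IRF8 KO libraries. Over the 422 tested genes that were assigned to the X chromosome, the median log2 fold change was 0.02.

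Over the 10 other tested genes of the region the median change was −0.60 on the log2 scale, from which CSF2RA (−0.69) differed by −0.10 and IL3RA (−2.01) by −1.41. Measured within each library against the median of the other 11 tested genes, each gene centred on its own mean, IL3RA differed by −1.28 between the groups (exact permutation p = 0.0286) and CSF2RA by 0.15 (exact permutation p = 0.657). Against the median level of these genes without centring, which shifted by −1.03, the differences were −0.98 (exact permutation p = 0.0286) and 0.33 (exact permutation p = 0.257). IL3RA was thus lower than its region by each of these references, with no overlap between the groups of libraries in those taken within a library. For CSF2RA the sign depended on how the reference was formed, and no difference from the region was detected. The first 2 references were chosen after seeing the data. CSF2RB lies on chromosome 22, outside this region, and relative to the genes of its chromosome it differed by −0.81. The part of the Y chromosome in the level of IL3RA and CSF2RA was not tested otherwise.

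**Figure D3:**
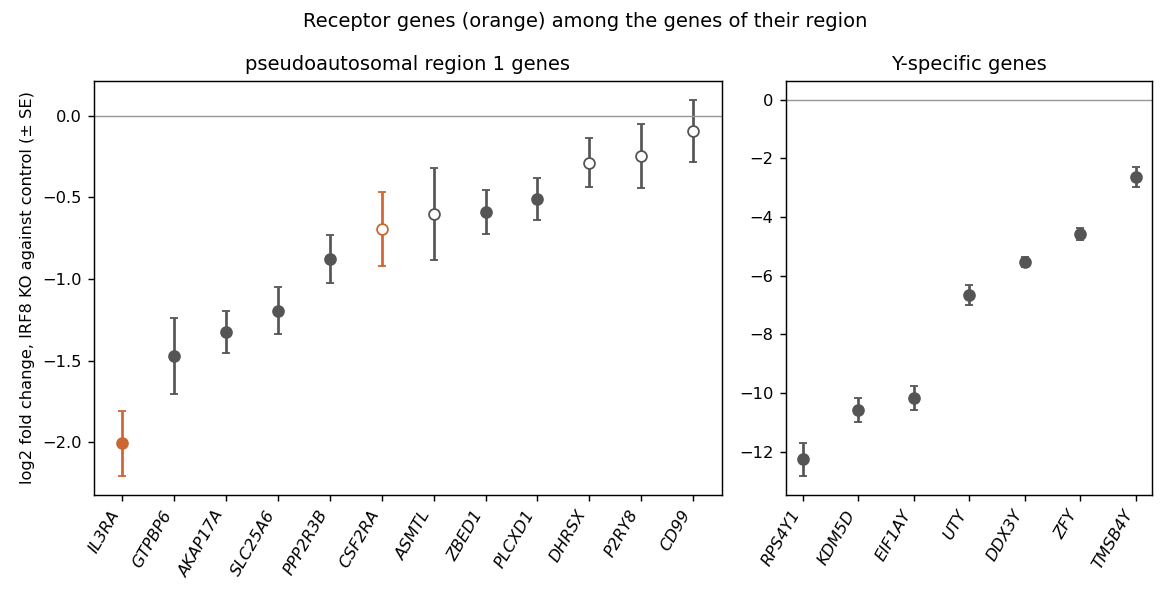
Log2 fold change of IRF8 KO against control (vertical axes, ± SE) for the tested genes of pseudoautosomal region 1 (left) and of the Y-specific list (right), ordered by value; the vertical scales differ. Orange marks IL3RA and CSF2RA, and filled symbols are called at an adjusted p below 0.05. IL3RA has the lowest value of its region at −2.01, and CSF2RA lies near the median of −0.65.

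CSF3R, the G-CSF receptor of the neutrophil lineage, was the member with a positive log2 fold change. It was measured at 949, 1706, 911 and 2139 normalized counts in control replicates 1 to 4 and at 2401, 2525, 1155 and 2456 in the IRF8 KO replicates. IRF8 KO replicate 3 stood apart below the other 3 and overlapped the control range. Its log2 fold change of 0.61 ± 0.35 was not called (limma, adjusted p = 0.277). The IRF8 KO library was the higher one in 4 of 4 pairs, by 0.20 to 1.34.

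IL6R, the alpha chain of the interleukin 6 receptor, was measured at 3952, 649, 4622 and 1069 normalized counts in control replicates 1 to 4 and at 4733, 658, 2423 and 1068 in the IRF8 KO replicates. Replicates 1 and 3 were high and replicates 2 and 4 low in both groups. The log2 fold change was −0.16 ± 0.78 (limma, adjusted p = 0.921), and its sign changed when any of 4 libraries was left out, with values between −0.68 and 0.29. Its partner IL6ST, the signal-transducing chain gp130, had a log2 fold change of 0.75 ± 0.37 that was not called (limma, adjusted p = 0.205), and IRF8 KO replicate 1 was highest at 684 normalized counts.

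IL10RA, the ligand-binding chain of the interleukin 10 receptor, was measured at 49.1, 26.7, 49.4 and 33.0 normalized counts in control replicates 1 to 4 and at 22.4, 20.1, 21.7 and 9.84 in the IRF8 KO replicates. The groups did not overlap. IL10RA differed by −1.07 ± 0.36 on the log2 scale, which was not called (limma, adjusted p = 0.0749), but passed with the replicate number as a block (limma, adjusted p = 0.0473). Its partner IL10RB had a mean of 10.5 in control and 7.96 in IRF8 KO libraries and was not tested, its mean over all libraries being below the filter.

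Ratios of receptor chains within a library, taken after adding 1 to each normalized count, depend little on the size factor where counts are high. Their difference between the groups was compared for 7 pairs. The log2 ratio of IL3RA to CSF2RB lay at 0.24 to 0.76 in control and at −1.08 to −0.35 in IRF8 KO libraries, a difference of −1.21 (exact two-sided permutation p = 0.0286, adjusted over the 7 ratios 0.1). IL3RA was thus lower relative to its beta chain in 4 of 4 IRF8 KO libraries, though with 7 ratios the adjusted value did not pass. The log2 ratio of CSF2RA to CSF2RB differed by 0.11 (exact permutation p = 0.886), and the 2 groups overlapped. The log2 ratio of CSF2RA to IL3RA, the chains that compete for the common beta chain, lay between −1.32 and −0.97 in control and between −0.61 and 0.76 in IRF8 KO libraries, a difference of 1.31 (exact permutation p = 0.0286, adjusted 0.1). The log2 ratio of CSF1R to FLT3 differed by −0.06 (exact permutation p = 0.857). For KIT to FLT3 the difference was −1.50 (exact permutation p = 0.0857), with IRF8 KO replicates 1 and 2 lowest. It depended on the value added to the low KIT counts, being −1.63 with 0.5 and −0.96 with 5. The differences for IL6R to IL6ST and IL10RA to IL10RB were −0.92 and −0.68, with overlap (exact permutation p = 0.286 and 0.229).

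**Figure D4:**
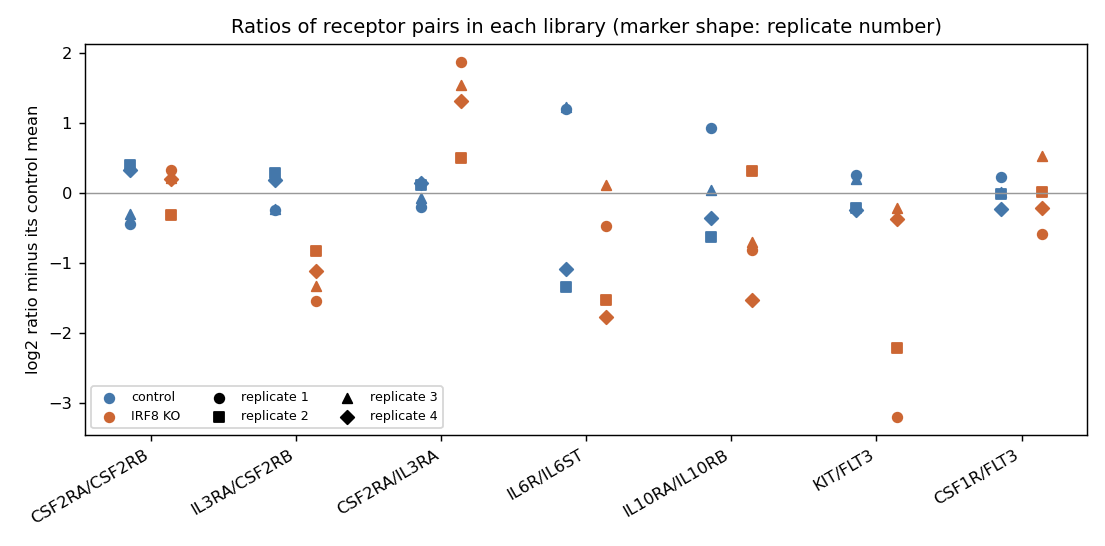
Log2 ratio of 7 receptor pairs in each library, minus the mean of the control libraries (vertical axis), for control (blue) and IRF8 KO (orange), with marker shapes for the replicate number. The groups are apart for IL3RA/CSF2RB and CSF2RA/IL3RA and overlap for the other pairs, except that KIT/FLT3 overlaps narrowly.

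Most ligands of the receptors were little expressed. Of 10 ligand genes 3 passed the filter, and 1 of them was called, KITLG, the stem cell factor that binds KIT. KITLG lay at 4.83, 0.863, 0 and 1.88 normalized counts in control replicates 1 to 4 and at 58.6, 31.5, 517 and 503 in the IRF8 KO replicates (log2 fold change 5.99 ± 1.00, limma, adjusted p = 0.0041). The control values rest on 0 to 6 reads, so the fold depends on the pseudocount. IRF8 KO replicates 3 and 4, in which KIT was higher than in replicates 1 and 2, were also those with the most KITLG. FLT3LG, the ligand of FLT3, had a log2 fold change of 0.81 ± 0.42 (limma, adjusted p = 0.223), and CSF1, the ligand of CSF1R, one of −1.49 ± 1.24 (limma, adjusted p = 0.465), with 25.8 to 610 normalized counts in control libraries. CSF2 and IL3, the ligands of CSF2RA and IL3RA, had a count of 0 in all 8 libraries, and IL34, CSF3, IL10 and IL5 were at most 2.13. IL6 was listed between 0.804 and 27.3 in control and between 0 and 0.984 in IRF8 KO libraries.

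Receptors of other cytokines moved in both directions, with a median log2 fold change of 0.03. Of 33 listed genes 24 were tested, of which 5 were called lower and 3 higher. Of all tested genes, 9.56% were called lower and 8.65% higher, the background for each list in this paragraph. IL2RB, the beta chain for interleukins 2 and 15 (log2 fold change −2.79), and IL9R (−1.08) fell. IL9R was assigned to the X chromosome, and the part of a Y copy in its level was not tested. IL18R1 (3.71), IL15RA (1.68) and IL1RAP, the accessory chain of the interleukin 1 receptor (3.02), rose. IL1RAP was at 1559 to 3455 normalized counts in control and 14373 to 31107 in IRF8 KO libraries, with no overlap. In the 27 genes of proximal signaling, 1 was called lower, PIK3CD (−0.56), and 1 higher, PIK3R1 (0.66), the catalytic and regulatory subunits of PI3K, with a median of −0.04. Of 20 negative regulators 5 were called lower and 1 higher, with a median of −0.22. They included the adaptors SLA2 (−2.38) and SLA (−1.07), the phosphatases INPP5D (−0.87), PTPN6 (−0.82) and PTPN1 (−0.70), which were lower, and the phosphatase PTPRC (1.34), which was higher. SLA2 and PTPN1 lie on chromosome 20, and of the 351 genes tested there 91.7% had a value below 0, the median of the chromosome being −0.92. Among 16 transcription factors known to act at receptor genes, MEIS1 fell (−0.56), CEBPE (5.56) and GFI1 (0.55) rose, and the median was 0.15.

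**Figure D5:**
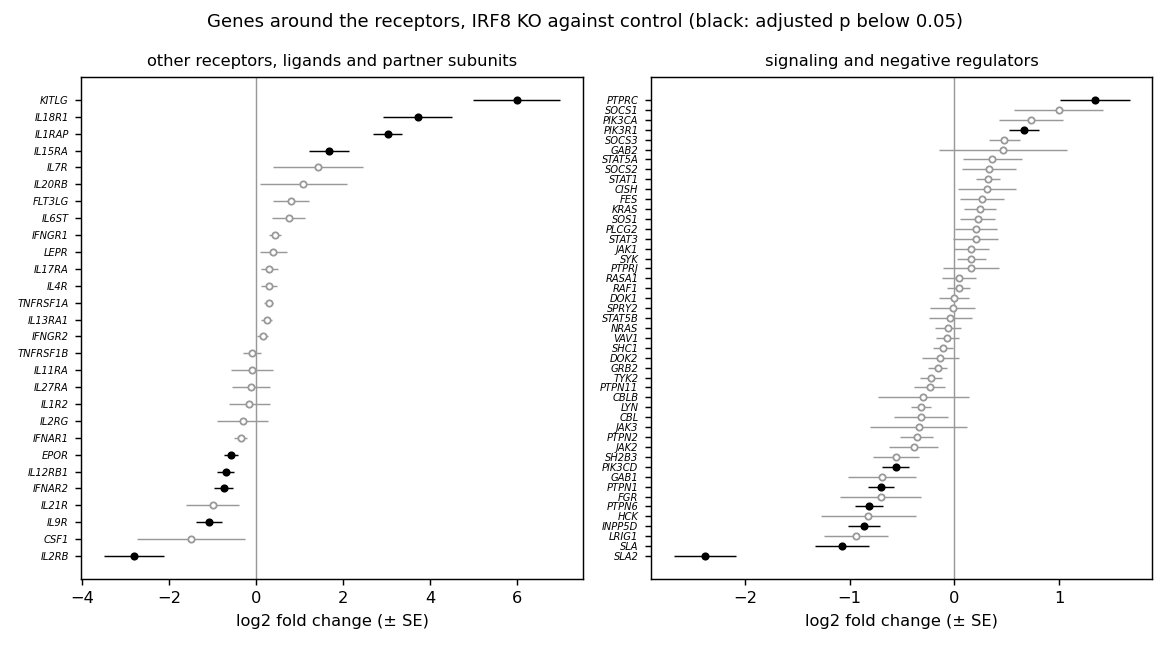
Log2 fold change of IRF8 KO against control (horizontal axes, ± SE) for the tested ligands, partner subunits and other cytokine receptors (left) and for proximal signaling genes and negative regulators (right). Black symbols are called at an adjusted p below 0.05. KITLG (5.99) and IL2RB (−2.79) are at the ends of the left panel, and PTPRC (1.34) and SLA2 (−2.38) at those of the right.

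The genes whose log2 profile over the 8 libraries was closest to that of FLT3, after centring each gene, were CAMTA2 (root mean square difference 0.038), ZNF671 (0.056), GOLGA1 (0.059), SH3BP2 (0.060) and SIKE1 (0.065), among 10985 candidates that averaged 100 or more normalized counts. The nearest gene was TTLL11 for CSF1R (0.085), MYO18A for CSF2RB (0.089), GPT for CSF3R (0.123), SC5D for CSF2RA (0.164) and ZNF337 for IL3RA (0.171). It was ACTR5 for IL10RA (0.179), KIAA1549 for KIT (0.248) and P2RY2 for IL6R (0.389). ZNF337 and ACTR5 lie on chromosome 20, where 91.7% of the tested genes had a log2 fold change below 0. With 8 libraries that share 1 contrast and the replicate split, such likeness is a description of these libraries.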

How the data were processed

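RNA-Seq of MV4-11 cells (4 control and 4 IRF8 KO libraries) was analysed. Per the methods, alignment was done by the authors with RNA-Star, counting with featureCounts and normalization with DESeq2. The submitters' processing notes name builds hg19 and hg38, without saying which served the RNA-Seq. The values deposited by the authors are a normalized signal for each gene, its reads over the size factor of the library, and 100% were whole reads within 0.01, where 1 read was worth 0.804 to 1.35. Control columns are named as wild type and were matched by replicate number. The deposited comparison table (fold changes, standard errors, scores, p-values) and the ChIP-Seq samples were not used here.

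Genes with a mean of at least 10 were compared by limma 3.58.1 (trended, robust) in R 4.3.3 on log2(value + 1), with the test checked on simulated data. Exact two-sided permutation tests covered single values. Alternatives were pseudocounts of 0.5 and 5, no filter or a mean of at least 100, upper quartile and quantile scaling, no trend, edgeR 4.0.16 and DESeq2 1.42.0 on recovered reads, a replicate block, other references and leaving out each library. Same-numbered libraries deviated together (correlations of 0.37, 0.48, 0.45 and 0.50 across genes). Replicates 1 and 3, and 2 and 4, also deviated together. Control replicates 1 to 4 had correlations of 0.47, 0.40, 0.41 and 0.41 with IRF8 KO replicates 3, 4, 1 and 2. These values thus show the split of replicates but do not single out pairs within it. Pairs here are formed by number alone. Named were all members, their ligands and partners, up to 6 called genes per list and the nearest profiles. CD3D and the other absent markers were named as such, and LYZ and CD33 to qualify the myeloid list. SLA2, PTPN1, ZNF337 and ACTR5 were set beside their chromosome after their values were seen. Members and lists were chosen with earlier results of these data known. Lengths of transcripts were not used here, so levels were not ranked between genes. Promoter windows came from RefSeq GRCh38.p14.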

Additional observations from a re-analysis of the deposited data

Results flagged for a closer look

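CSF3R in IRF8 KO replicate 3 (1155 normalized counts) stood apart from the other 3 IRF8 KO libraries, its gap to the nearest of them being 0.909 of the range of the group, more than Dixon's test at 95% allows for 4 samples. It was 1 of 18 groups examined, and chance gives about 1 such group in 20.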

How the results depend on the processing

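IL3RA (log2 fold change −2.17 to −1.90) and CSF2RB (−0.86 to −0.75) were called lower in all 18 refits, and FLT3 (−0.32 to −0.11), KIT, CSF1R, CSF3R and IL6R in none, with no value for KIT and IL10RA at a mean of at least 100. DESeq2 on recovered reads, which called 3402 genes in all against 2387, called 4 members, all 4 lower, adding CSF2RA (−0.72) and IL10RA (−1.10). IL10RA (−1.07) was also called by limma without the trend and with the replicate block, which called 3769 genes in all and changed no other member's call. The thresholds of the study, applied to limma and not to DESeq2, called 1 member, 1 lower, and 1429 genes. CSF2RA lay between −0.85 and −0.54 with a library left out, and was called without control replicate 1. IL6R lay between −0.68 and 0.29, and turned positive without control replicate 1 (0.19), control replicate 3 (0.27), IRF8 KO replicate 2 (0.29) or IRF8 KO replicate 4 (0.056). Relative to the median level of its chromosome CSF1R was −0.63, and with each gene centred on its mean −0.49. Relative to the median level of the other genes of pseudoautosomal region 1 CSF2RA was 0.33 and IL3RA −0.98, and with neither receptor in the reference 0.26 and −1.05. With each gene of the reference centred on its mean, they were 0.15 and −1.28, and 0.047 and −1.27. The references with centring, and those with neither receptor, were chosen after seeing the data. FLT3 was nearer 0 without control replicate 2 (−0.11), control replicate 4 (−0.11) or IRF8 KO replicate 3 (−0.13). The causes were not tested. Levels per kilobase were not run. Counting error limits KIT and IL10RA.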
